A study of Mus musculus with 24 samples.

Results

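The cytosolic ribosomal protein genes were taken as the protein-coding rows of the count table whose symbol is Rpl or Rps with a number and an optional letter, or Rplp0, Rplp1, Rplp2 or Rpsa, and that held at least 1 count over the 24 libraries. Kinases of the Rps6k family and names of pseudogenes were left out. The rule gave 70 members, 42 of the large and 28 of the small ribosomal subunit, among 41128 rows, of which 22026 are protein-coding. A further 12 symbols fit the rule but were listed at 0 in every library (Rpl39, Rpl10, Rps4x, Rpl36a, Rpl13, Rps25, Rplp1, Rpl4, Rps27l, Rpl29, Rpsa and Rpl14). They lie on chromosomes 9 and X and near the end of chromosome 8, stretches in which all genes were listed at 0, and are not analysed here. Of the 70 members, 66 passed the filter on low counts and were tested, 39 of the large and 27 of the small subunit. Rpl10l, Rpl39l, Rpl3l and Rps29 did not pass it.

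The libraries held aortic RNA of mice, 5 months old, of the B6,129S6-Ppp3cb line, wildtype (WT) or knockout (KO) for Ppp3cb, the catalytic beta subunit of the phosphatase calcineurin. The AngII mice of each genotype received angiotensin II, a vasoconstrictor peptide, from implanted pumps over 4 weeks, at a rate of 500 ng per kg per min, and the others were controls. The labels do not say whether controls carried a pump. Each combination of genotype, treatment and sex had 3 libraries, giving 8 groups, and the study asked how calcineurin takes part in the vascular response to angiotensin II.

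Ribosomal proteins coat and stabilise the ribosomal RNA. Those of the small subunit line the channel that the messenger RNA runs through and the decoding site, and those of the large subunit surround the site of peptide bond formation and the exit tunnel. Cells make them in matched amounts, and surplus subunit proteins are degraded. Their messenger RNAs start with a run of pyrimidines, the 5′ terminal oligopyrimidine tract, through which the kinase mTORC1 and the protein Larp1 set how fast they are translated. Growth of smooth muscle cells under angiotensin II is known to draw on the same kinase, which acts mainly on translation rather than on transcript levels. Most of these genes have left many processed pseudogenes in mouse chromosomes, copies of the spliced messenger RNA.

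Totals per library ran from 1523328 to 6352365 counts (median 3836000), and the members received 2374 to 13199 counts per library, 0.209% to 0.442% of the protein-coding counts. Levels are given in CPM, the usual depth-scaled count, over library totals scaled by TMM. Ppp3cb stood at 41.7 ± 8.25 CPM in WT control and 42.2 ± 13.8 in WT AngII mice, against 21.0 ± 7.41 and 21.6 ± 5.20 in KO control and KO AngII mice (SD, n = 6 each). Myh11, the smooth muscle myosin, was the protein-coding gene with the second highest mean level, 7223 ± 1568 CPM (SD, n = 24). The KO control females had the highest mean for olfactory and vomeronasal receptor genes. These held 1627 ± 545 CPM of protein-coding counts there, against means of 145 to 716 in the other 7 groups. Single libraries overlapped: KO AngII female replicate 1 had 1073 CPM and KO control female replicate 2 had 1001. In KO control female replicate 1, the library with the fewest counts, 12 of the 66 tested members had 0 counts, against at most 4 in any other library. The labels do not tie libraries to separate mice beyond their numbers, so p-values measure the spread between libraries.

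Per kb of exon (all exons of the gene in GENCODE M21, build mm10), the tested members spanned 0.748 to 86.7 CPM per kb, with a median of 9.38. Rpl21 was highest at 86.7 ± 20.9 CPM per kb over the 24 libraries (chr5:146832890-146837032, + strand). Rps15, a protein of the head of the small subunit, stood at 72.1 ± 25.7 (chr10:80292453-80294114, + strand), and its difference from Rpl21 was not tested. Rplp0, the base of the stalk that recruits elongation factors, stood at 71.5 ± 17.4, and Rpl41, a peptide of the subunit interface, at 55.1 ± 13.3. At the other end stood Rpl34 at 0.748 ± 1.6 (chr3:130726831-130730398, − strand), Rps13 at 0.947 ± 0.656 and Rpl37 at 1.23 ± 0.979, whose ranges overlapped. These lowest members each had libraries with 0 counts. The subunits had medians of 9.46 CPM per kb over the 39 large and 9.11 over the 27 small members. Single members also differed in precision. The SD between libraries of a group ran from 0.21 to 1.44 on the log2 scale, with a median of 0.88 for the 28 tested members that averaged under 50 counts per library and 0.38 for the 26 that averaged at least 100.

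**Figure D1:**
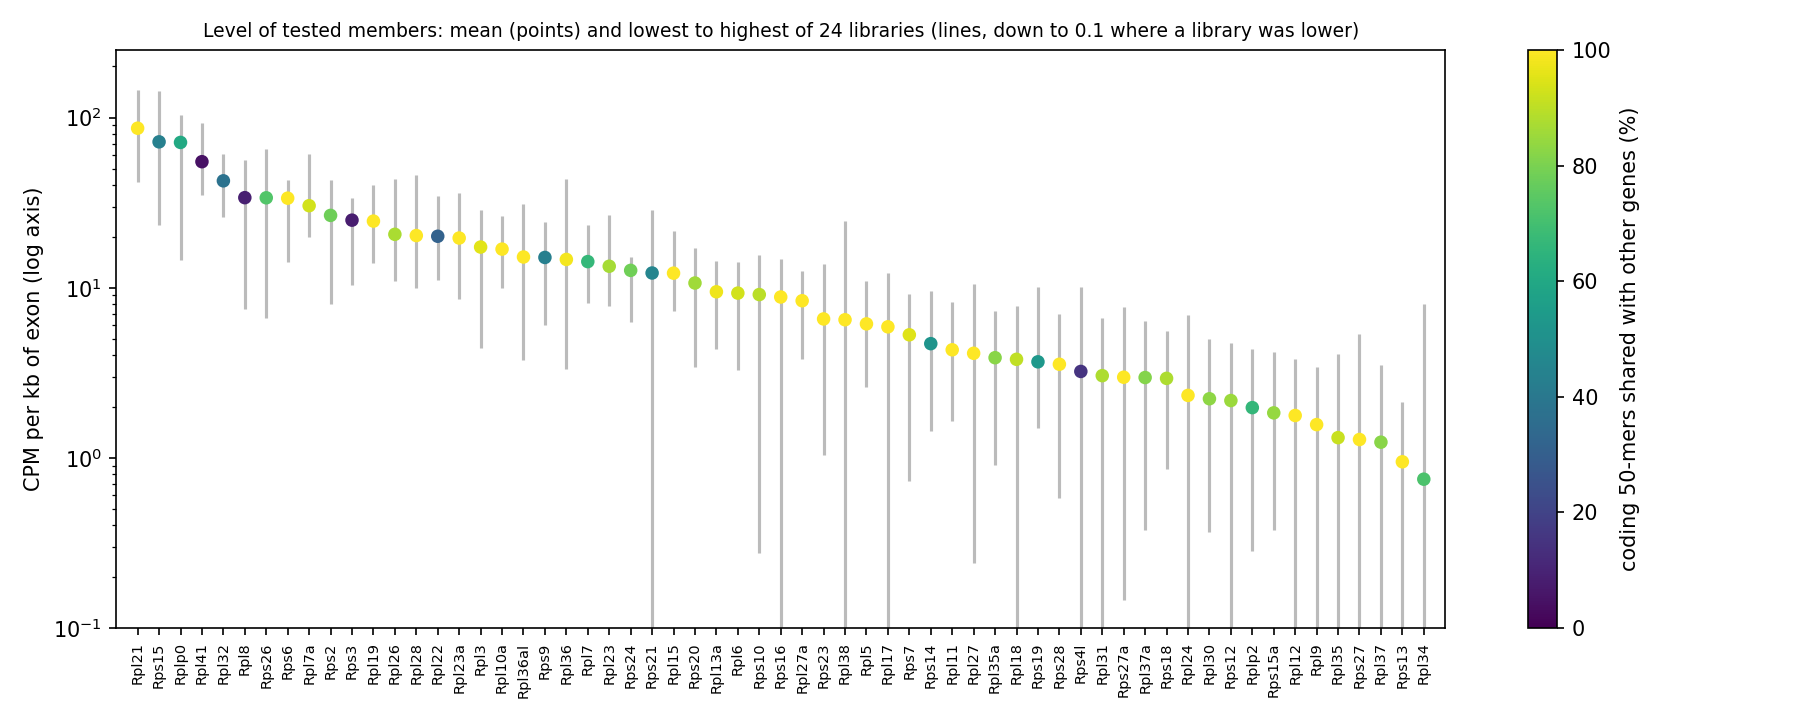
Level of 61 tested members in CPM per kb of exon on a log axis, ordered by the mean over 24 libraries (points) with the lowest to the highest library (lines); colour gives the percentage of coding 50-base words that occur in another gene's transcript. Rpl21 at 86.7 heads the order and Rpl34 at 0.748 ends it, and the members with few shared words lie mostly in the upper part.

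Members with a paralogue of restricted expression were compared within their pair. Rpl3, which reaches towards the site of peptide bond formation, held 5009 counts (17.3 ± 5.37 CPM per kb), and Rpl3l, its copy in skeletal and cardiac muscle, held 41 counts in all and none in 9 libraries. Rpl10l and Rpl39l, known as copies of X-linked genes that serve in the testis, held 2 counts each. Rpl36al, the autosomal copy of X-linked Rpl36a, stood at 15.2 ± 5.23 CPM per kb. Rps4l, the copy of X-linked Rps4x, which GENCODE lists as a transcribed processed pseudogene, stood at 3.22 ± 2.52. Rpl22 stood at 20.1 ± 6.15, Rpl26 at 20.6 ± 7.06 and Rps27 at 1.28 ± 1.22 CPM per kb. The counts of Rpl3l, Rpl10l and Rpl39l, which share none, 12.5% and none of their coding 50-base words with other genes, were near the lowest the table can show.

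Many counts of this gene family were found at rows named as its pseudogenes. The table holds 217 rows named as pseudogenes of a member, and together they received 229434 counts, 1.29 times the 177705 counts at the members themselves. Some of these rows, such as Rps12.ps3 and Rpl23a.ps3, are labelled protein-coding, and 56 lie within the span of another protein-coding gene. The source of the counts at these rows was not tested. At least 1 such row existed for 48 members, 43 of these had counts there, and for 22 of them the pseudogene rows held more counts than the member. Of the 217 rows, 170 had counts. Those on chromosomes X and 9 were all at 0, as were all genes there, so the counts at pseudogene rows may be too low. Rps12, a small subunit protein (chr10:23785183-23787275, − strand), held 384 counts over the 24 libraries, and the row Rps12.ps3 on chromosome 19 held 20097. A stretch of 60 bases from each is shown because their letters are the same (build mm10), and the longest run shared by the transcripts was 400 bases.
Rps12, chr10:23786821-23786880, − strand: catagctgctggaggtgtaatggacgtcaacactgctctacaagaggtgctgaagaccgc
Rps12.ps3, chr19:59322385-59322444, + strand: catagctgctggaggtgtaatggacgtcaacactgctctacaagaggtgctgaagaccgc
Rpl28, a large subunit protein, held 3212 counts against 17288 at Rpl28.ps1, with an identical run of 414 bases. Rps6, the substrate of the kinases downstream of mTORC1, held 4679 counts against 14427 at Rps6.ps4, with an identical run of 750 bases. Rplp0 showed the reverse order, 10642 counts against 304 at Rplp0.ps1, and there the longest identical run was 93 bases. A stretch of 60 bases from a coding exon is shown with its 1 difference in capitals. This is T18C, counted from the 5′ end of the stretch with the base of Rplp0 first.
Rplp0, chr5:115560741-115560800, + strand: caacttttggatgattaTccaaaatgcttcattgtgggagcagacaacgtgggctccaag
Rplp0.ps1, chr3:93278195-93278254, + strand: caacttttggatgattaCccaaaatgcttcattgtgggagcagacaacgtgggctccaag

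**Figure D2:**
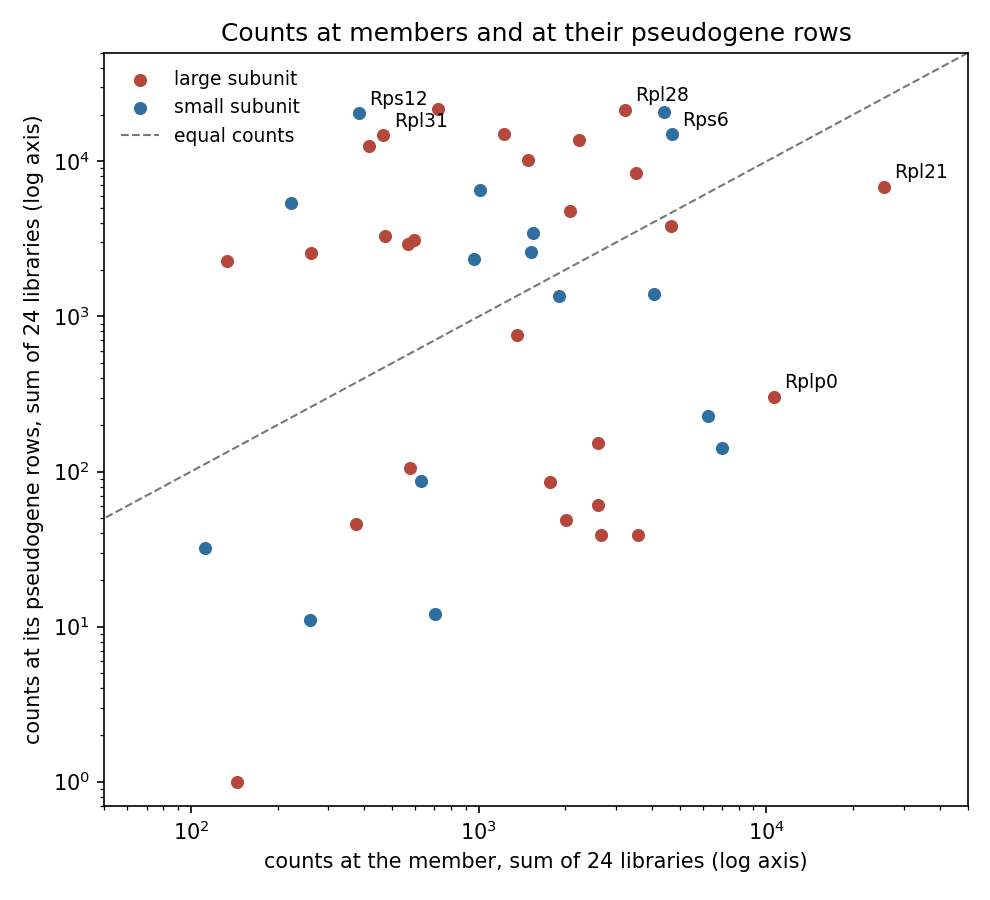
Counts at each member (x axis, log) and at the rows named as its pseudogenes (y axis, log), summed over 24 libraries, for the 43 members with counts at such a row; the dashed line marks equal counts. The points above the line are the 22 members with more counts at pseudogene rows, and Rps12 stands far above it, at 384 counts with 20559 at its pseudogene rows.

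The share of a member's coding sequence that other genes repeat was counted in words of 50 bases, on either strand, over the GENCODE M21 transcripts. The median over the 70 members was 88.7%. Of the members, 25 had every word repeated elsewhere, 56 had at least 50% and 14 had less. The 11 tested members under 50% had a median of 33.9 CPM per kb, and the 55 others had a median of 6.55. How reads that match several places were counted is not given in the sources used here, so the level of a member with many copies is uncertain, and so is that of the 21 members with a small RNA gene overlapping an exon. The rows Rps19.ps1 and Rps19.ps2 had the same count in each of the 24 libraries.

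The members' start sites were searched for short pyrimidine words that belong to the oligopyrimidine tract. RefSeq promoters (GRCm38.p6) were matched for 51 members, with 62 starts. CTCTTT or CTTTCC lay within 50 bases of a start in 28 of them, 54.9%, against 9.29% of all 27025 genes with a promoter. This was on the strand that has the sequence of the RNA. The words may overlap by some letters. On the opposite strand, neither word was found in the 51 members, against 8.73% of all genes. Windows of 30 bases, with the start after the first 15 bases, are shown for members that hold a word across the start or just after it, with the words in capitals.
Rpl28, chr7:4792950-4792979, + strand: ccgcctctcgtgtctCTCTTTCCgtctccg
Rpl18, chr7:45718056-45718085, + strand: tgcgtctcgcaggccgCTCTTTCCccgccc
Rpl35a, chr16:33056467-33056496, + strand: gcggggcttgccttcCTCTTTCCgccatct
Rps6, chr4:86857353-86857382, − strand: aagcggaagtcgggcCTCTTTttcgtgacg
Rps9, chr7:3704026-3704055, + strand: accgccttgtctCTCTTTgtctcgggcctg
These words are a feature of the sequence, and translation was not measured here.

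Summed over the 70 members, the level differed little between the genotypes and treatments. It was 2050 ± 142 CPM in WT control, 2002 ± 154 in WT AngII, 1996 ± 318 in KO control and 2024 ± 241 in KO AngII mice (SD, n = 6 each). The lowest, median and highest library were 1938, 2007 and 2306 CPM in WT control, 1726, 2066 and 2122 in WT AngII, 1512, 1998 and 2396 in KO control and 1645, 2112 and 2254 in KO AngII mice. The 4 ranges overlapped, and the means differed by less than the SD of any of them. The 42 large subunit genes summed to 1231 ± 91.7, 1202 ± 62.2, 1230 ± 135 and 1230 ± 158 CPM in that order of groups. The 28 small subunit genes summed to 819 ± 75.8, 800 ± 107, 766 ± 192 and 794 ± 114. The ratio of large to small was 1.51 ± 0.129, 1.52 ± 0.166, 1.67 ± 0.302 and 1.56 ± 0.201. Rpl21 alone held 14.4% of all member counts, and without it and Rps3, the most abundant small subunit gene, the ratio was 1.33 in WT control, 1.41 in WT AngII, 1.41 in KO control and 1.35 in KO AngII mice. Fewer cells and less RNA per cell cannot be told apart in tissue samples.

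The ratio was spread unevenly within the KO controls. The 3 KO control females had ratios of 1.70, 1.82 and 2.17, and the WT control females 1.51, 1.54 and 1.65, without overlap. The AngII females overlapped the KO control females, at 1.71, 1.54 and 1.70 in WT and 1.73, 1.49 and 1.88 in KO mice. The KO control males had 1.37, 1.41 and 1.52, within the range of the WT control males, 1.265, 1.54 and 1.56. In the KO control females the small subunit sum was 622 ± 129 CPM and the large subunit sum 1162 ± 139. In the KO control males these were 909 ± 115 and 1299 ± 109 (SD, n = 3 each). The smooth muscle markers, of which 8 of 10 had counts (Tagln was listed at 0), summed to 9235 ± 2030 CPM in these females and 19570 ± 2072 in these males. RNA of rRNA, snRNA and misc_RNA genes made up 9.14% ± 5.80 and 34.1% ± 5.20 of the counts. Their part in the ratio was not tested.

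**Figure D3:**
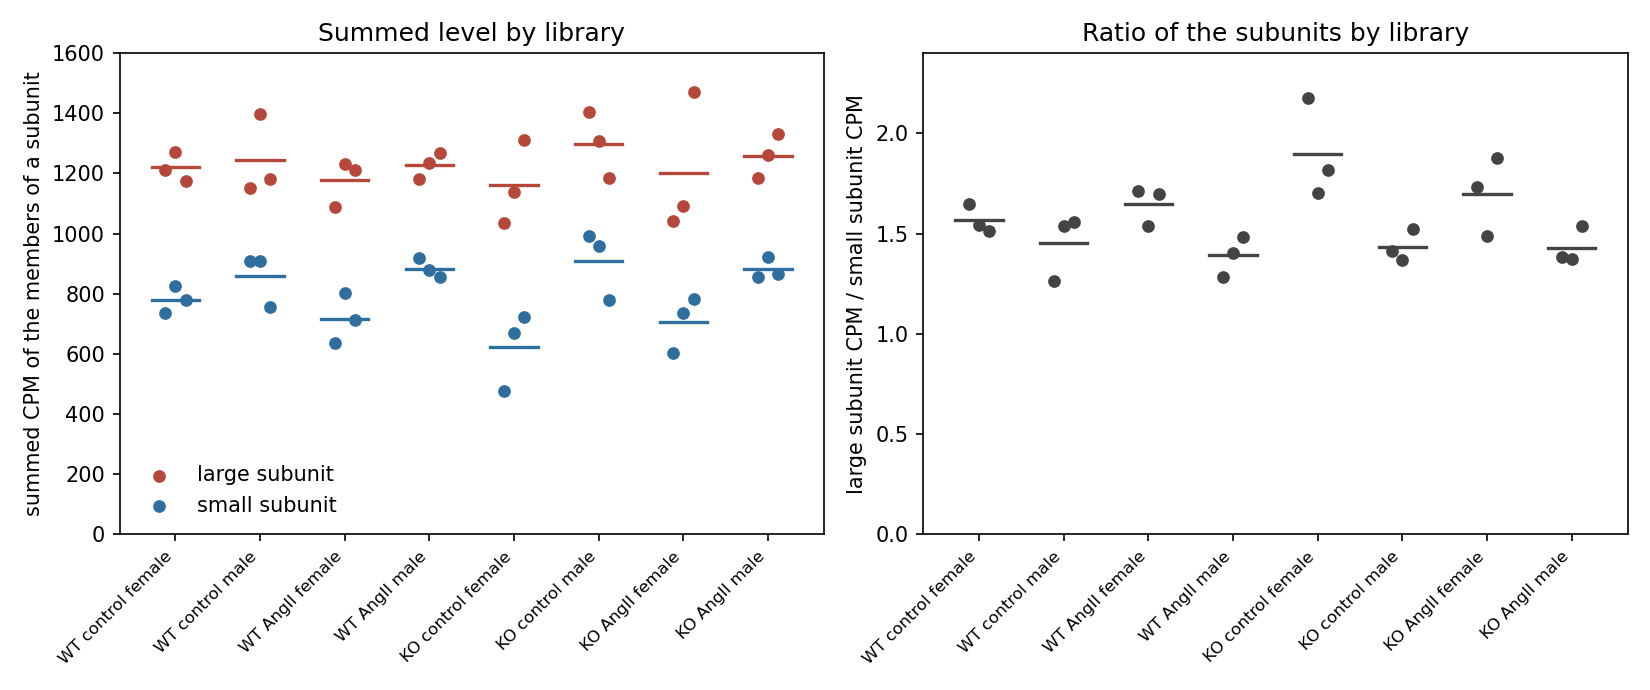
Left, summed CPM of the 42 large and 28 small subunit members in each library (points) with the mean of each group of 3 (lines); right, the ratio of the sums. The large subunit sums lie at 1035 to 1471 CPM in every group, the small subunit sums of KO control females reach down to 476 CPM, and the ratio reaches 2.17 there.

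AngII against control in WT mice asks whether 4 weeks of the peptide altered these transcripts. No member was called at an adjusted p under 0.05 by edgeR's quasi-likelihood test, against 0.208% of all genes tested, and none by DESeq2 or limma-voom. At an unadjusted p under 0.05 stood 1 of 66 members, against 6.71% of all genes. The median change was -0.01 on the log2 scale, as over all genes (-0.01), with 0.04 for large and -0.08 for small subunit genes. None of the 66 had groups that did not overlap, against 0.65% of all genes. The 95% interval of the change lay within 1 log2 unit of 0 for 39 of the 66 members.

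Rps28, a small subunit protein on the side where the messenger RNA leaves (smallest p of the members), ranged over 5.32, 10.2 and 12.0 CPM (lowest, median, highest of 6) in WT control and 1.00, 5.48 and 6.75 in WT AngII mice. The ranges overlapped. Its change was -0.99 ± 0.47 (log2, SE; unadjusted p = 0.0445, adjusted p = 0.743 by edgeR). Rps20, on the head of the small subunit, had an estimate of the other sign, from 36.3 ± 6.24 to 49.0 ± 14.4 CPM (0.40 ± 0.23). Rpl22, whose loss is known to be buffered by its paralogue Rpl22l1, went from 66.4 ± 18.6 to 51.9 ± 8.53 CPM (-0.36 ± 0.21), Rpl27a stood at -0.45 ± 0.26 and Rps10 at -0.55 ± 0.35. Among members of at least 1 log2 CPM, the highest values were those of Rpl37 (1.09 ± 0.86), Rpl27 (0.75 ± 0.55) and Rpl31 (0.62 ± 0.58), and the lowest beside Rps28 those of Rps13 (-0.87 ± 0.87) and Rpl24 (-0.58 ± 0.92). The groups of all these members overlapped. Of the endothelial markers 7 of 8 and of the neural and Schwann cell markers 6 of 7 had lower, and of the macrophage markers 9 of 9 had higher estimates with AngII, none of them called. The neural and Schwann markers summed to 18.7 to 140 CPM in WT control and 40.1 to 51.3 in WT AngII mice. Their part in the members' values was not tested.

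In KO mice the same question was asked. edgeR called no member, against 0% of all genes, and DESeq2 and limma-voom called none, and 2 members stood at an unadjusted p under 0.05 (3.03% against 7.71% of all genes). The median was 0.03, with 0.07 for large and 0.01 for small subunit genes, beside 0.01 over all genes. No member had groups that did not overlap, against 0.227% of all genes. The interval lay within 1 log2 unit of 0 for 33 members.

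Rps7, a small subunit protein that is also known to bind the ubiquitin ligase Mdm2, ranged over 9.23, 15.7 and 18.5 CPM in KO control and 1.47, 8.61 and 14.9 in KO AngII mice. The KO AngII libraries reached lower, and the ranges overlapped (-0.92 ± 0.38, unadjusted p = 0.0210, adjusted p = 0.580 by edgeR). Small p-values were also those of Rpl22 (-0.39 ± 0.21, unadjusted p = 0.0710) and Rpl23a (0.52 ± 0.30, unadjusted p = 0.0900). Rpl31 (0.81 ± 0.61) and Rpl12 (0.66 ± 0.53), which sits at the base of the stalk, had high values, and Rpl37a (-0.66 ± 0.62) and Rps18 (-0.56 ± 0.44) low ones. Of the neural and Schwann cell markers 6 of 7 had lower estimates with AngII (median -2.33), and their sum ranged from 17.6 to 283 CPM in KO control and 16.6 to 49.9 in KO AngII mice. Of the endothelial markers 7 of 8 had lower and of the adipocyte markers 9 of 10 had higher estimates. None of these markers was called, and their part in the members' values was not tested.

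KO against WT in control mice asks what the loss of Ppp3cb alone did. edgeR called no member, against 0.221% of all genes, and none by DESeq2 or limma-voom. At an unadjusted p under 0.05 stood 3 of 66 (4.55% against 9.73% of all genes). The median was -0.11, with -0.05 for large and -0.17 for small subunit genes, beside -0.01 over all genes, and 39 of 66 members were lower in KO mice. In males alone the median was 0.11. None had groups that did not overlap, against 0.337% of all genes. Of the macrophage markers, 9 of 9 had higher estimates in KO controls, none of them called, and their sum ranged from 79.9 to 127 CPM in WT and 90.6 to 529 in KO controls. Of the smooth muscle markers, 8 of 8 had lower estimates. Higher estimates were those of 0 of 6 brown adipocyte, 1 of 10 adipocyte and 7 of 7 neural and Schwann cell markers. None of these markers was called. Their part in the members' values was not tested.

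Rpl34 had the highest estimate, 3.02 ± 1.27 (unadjusted p = 0.0234), which rested on 1 library: KO control female replicate 3 stood at 21.1 CPM, and the other KO controls at 0, 0, 0, 1.83 and 2.93. Without KO control female replicates 1 and 3, the libraries with the fewest member counts (2374 and 3668), the estimate was -0.86. Rps7 went from 8.61 ± 3.76 in WT to 15 ± 3.25 CPM in KO controls (0.82 ± 0.38, unadjusted p = 0.0381). Rpl3 went from 63.0 ± 17.1 to 47.2 ± 22.3 CPM (-0.48 ± 0.24), and was called lower in KO mice when KO control female replicate 2 was left out (-0.90, adjusted p = 0.036 by edgeR), while it stood at 0.17 with the share of receptor counts as a covariate. Rps15 stood at -0.40 ± 0.22. Rps27a, a fusion of ubiquitin with a small subunit protein, had 0.88 ± 0.54 and Rpl37 0.76 ± 0.88, and Rpl12 (-0.82 ± 0.53), the acidic stalk protein Rplp2 (-0.78 ± 0.65) and Rps16 (-0.72 ± 0.41) had the lowest values.

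KO against WT under AngII asks what the loss of Ppp3cb did in treated mice. edgeR called no member, against 0.355% of all genes, and none by DESeq2 or limma-voom, and 0 of 66 stood at an unadjusted p under 0.05, against 7.75% of all genes. The median was 0.00, with -0.03 for large and 0.01 for small subunit genes, beside 0.01 over all genes. The groups of every tested member overlapped, while those of 0.815% of all genes did not. Rpl35a, one of the proteins mutated in Diamond-Blackfan anaemia, had the smallest p: it ranged over 11.4, 18.0 and 25.8 CPM in WT AngII and 8.49, 12.3 and 15.6 in KO AngII mice (-0.56 ± 0.31, unadjusted p = 0.0807). Rps19, another of these proteins, went from 14.5 ± 5.06 to 21.1 ± 14.6 CPM (0.59 ± 0.35), with a highest library of 47.0. Without KO AngII female replicate 1 its estimate was -0.13. Rpl21 stood at 249 ± 42.9 CPM in WT AngII and 313 ± 94.5 in KO AngII mice (0.33 ± 0.20), Rps10 at 0.50 ± 0.35 and Rpl41 at -0.26 ± 0.20. The ends of the range were Rps13 (0.96 ± 0.87) and Rpl36 (0.67 ± 0.52), and Rpl37a (-0.59 ± 0.62) and Rpl37 (-0.54 ± 0.84).

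The interaction asks whether AngII acted differently in KO than in WT mice. No member was called by edgeR, against 0% of all genes, nor by DESeq2 or limma-voom, and 3 of 66 stood at an unadjusted p under 0.05 (4.55% against 4.03%). The median was 0.09, with 0.07 for large and 0.10 for small subunit genes, beside 0.04 over all genes. Rps7 had the smallest p (-1.24 ± 0.53, unadjusted p = 0.0269, adjusted p = 1.00 by edgeR): its mean went from 8.61 to 10.6 CPM with AngII in WT and from 15 to 8.36 in KO mice. Rps10 stood at 1.07 ± 0.50 (unadjusted p = 0.0378): its mean went from 25.1 to 17.1 CPM with AngII in WT and from 18.0 to 24.1 in KO mice. Rps19 (0.80 ± 0.49) and Rplp2 (0.91 ± 0.91) had high and Rpl34 (-2.60 ± 1.68), Rpl37 (-1.29 ± 1.21) and Rps18 (-0.83 ± 0.62) low values. These comparisons share their control libraries, so a member that is off in one group appears in several of them. Here 24 of the 66 members had an interval within 1 log2 unit of 0.

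**Figure D4:**
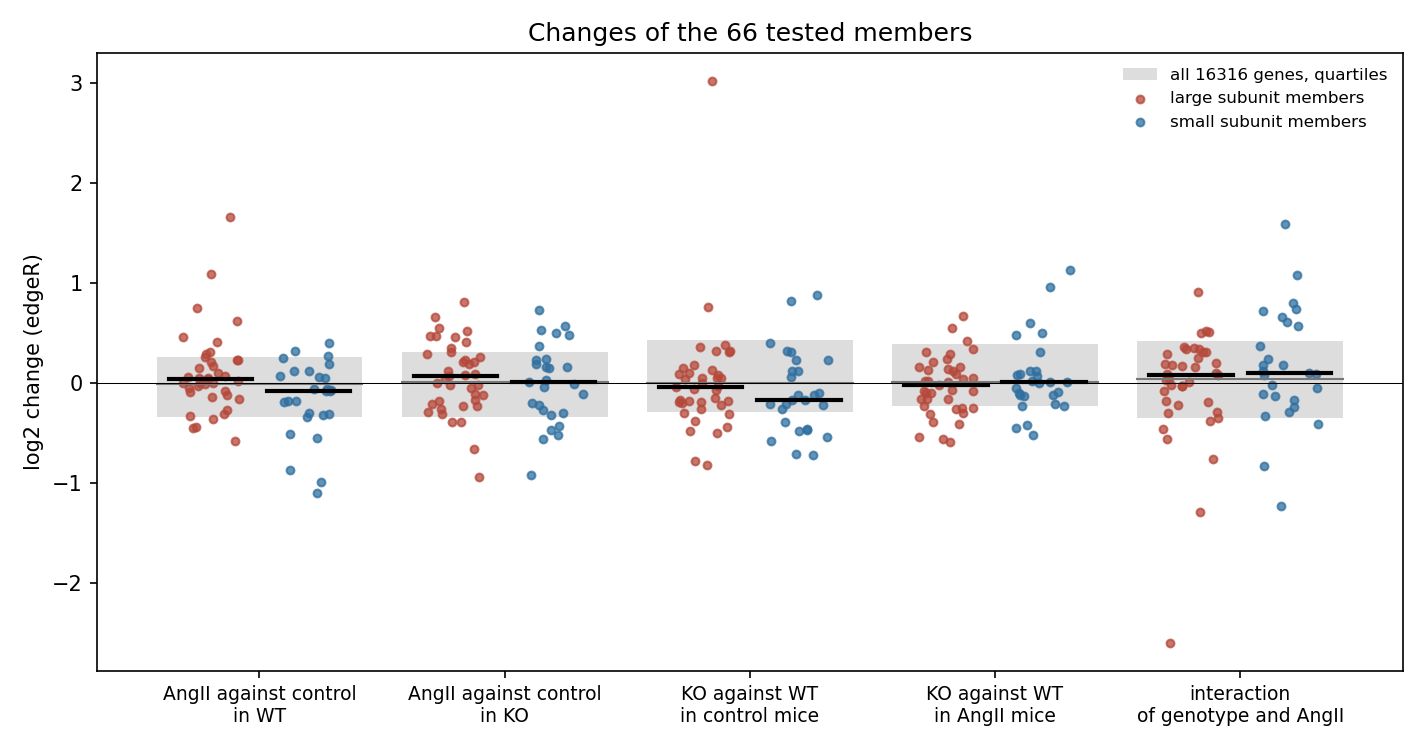
Log2 change of each tested member (points, large subunit red and small subunit blue) in the 5 comparisons, with the median of each subunit (black lines) and the quartiles and median of all 16316 genes tested (grey). The medians lie between -0.17 and 0.10; the point at 3.02 is Rpl34 in the comparison of KO with WT controls.

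The members with little repeated sequence gave tighter estimates, with a median SE of 0.21 against 0.35 for the others with AngII in WT mice. For the 11 tested members under 50% of repeated words, the median change was -0.06 for AngII in WT, -0.01 for AngII in KO, -0.05 for KO against WT in controls, -0.07 for KO against WT under AngII and -0.03 for the interaction. Of the 11, 8 had intervals within 1 log2 unit of 0 for the interaction and 9 for each of the other comparisons. When each member's counts were replaced by the sum of the member and its pseudogene rows, an alternative chosen after the counts at the pseudogenes had been seen, no member was called in any of the 5 comparisons by edgeR.

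The effects of AngII and of the knockout were compared between the sexes. No member was called in any of the 4 tests of a sex difference by edgeR, DESeq2 or limma-voom. All genes were called at 0% for AngII in WT, 0% for AngII in KO, 0.0552% for KO in controls and 0% for KO under AngII. At an unadjusted p under 0.05 stood 2, 2, 11 and 1 of 66 members in that order, against 3.16%, 7.58%, 11.6% and 2.37% of all genes. Of the 11 for KO in controls, 9 were large subunit genes, and the KO control females enter that test. Its median was 0.45, and 0.01 with the share of receptor counts as a covariate.

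Between the sexes, members were called. This comparison, male against female averaged over the 4 combinations of genotype and treatment, was added after the levels by sex had been seen. edgeR called 8 of 66 members, all higher in males, against 5.27% of all genes. DESeq2 called 12 members and limma-voom 10, and the shares of all genes that they called are not given here. By edgeR, 22 members stood at an unadjusted p under 0.05 (33.3% against 20.2% of all genes). The median was 0.23, with 0.09 for large and 0.30 for small subunit genes, beside -0.05 over all genes. The members called were 3 large subunit genes (Rpl8, Rpl17 and Rpl18) and 5 small subunit genes, among them Rps15, Rps2 and Rps20. The summed small subunit level was 883 ± 67.6 CPM in males and 706 ± 98.1 in females, and the large subunit level 1257 ± 87.0 and 1190 ± 125 (SD, n = 12 each). The ratio of large to small was 1.43 ± 0.10 in males and 1.70 ± 0.192 in females.

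Rpl8, at the site of peptide bond formation, ranged over 10.2, 28.4 and 50 CPM in females and 36.3, 61.9 and 77.0 in males (lowest, median, highest of 12), and rose in males by 0.83 ± 0.18 on the log2 scale (adjusted p = 0.00579 by edgeR). Rps15 ranged over 14.6, 35.2 and 56.3 in females and 36.9, 55.7 and 89.9 in males (0.71 ± 0.16). The ranges of the sexes overlapped for both genes and for every other tested member, where 0.0306% of all genes had sexes that did not overlap. Rpl17, which lines the exit tunnel, had the largest change, 1.33 ± 0.33, from 4.45 ± 2.11 to 11.2 ± 3.33 CPM. Further values were 1.06 ± 0.32 (Rpl18), 0.59 ± 0.17 (Rps2) and 0.54 ± 0.16 (Rps20). The 6 genes named here were higher in males within each of the 4 combinations of genotype and treatment, by 0.13 to 1.95. They had been chosen by the average over these same combinations, so this is no separate support. In WT controls the estimates were 0.13 ± 0.34 for Rps2, 0.18 ± 0.32 for Rps20 and 0.31 ± 0.36 for Rpl8 (log2, SE). Those of Rps15, Rpl18 and Rpl17 there were 0.32 ± 0.31, 0.49 ± 0.63 and 1.03 ± 0.65. The median of all members was 0.02 in WT control, 0.23 in WT AngII, 0.43 in KO control and 0.25 in KO AngII mice.

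The average holds only combinations with both sexes, so it lost its KO control part without the KO control female group. With these fewer libraries, 1 member was called, against 1.11% of all genes, and the estimate was 0.65 for Rpl8 and 0.53 for Rps15. With the share of receptor counts as a covariate, edgeR called 0 members, against 0.159% of all genes. In that fit 10 members stood at an unadjusted p under 0.05, where the share of all genes is not given here. The estimates there were 0.84 for Rpl8, 0.68 for Rps15 and 0.15 for Rps2. Leaving out only their replicates 1 and 3 gave 8 called members, and fits that each lacked 1 library gave 4 to 11 (4 when replicate 1 of the WT control males or of the KO control males was absent). Of these 24 fits, Rpl8, Rpl17 and Rps15 were called in 24 each, Rps2 in 14, Rpl18 in 13 and Rps20 in 7. The share of all genes called is not given here for the fits that lacked 1 library or replicates 1 and 3. Other measures moved with sex too. The smooth muscle markers were higher in males in 8 of 8 genes tested and called in 4, with sums of 18963 ± 2517 CPM in males and 13650 ± 3461 in females. Receptor genes held 322 ± 151 and 748 ± 626 CPM of protein-coding counts, and rRNA, snRNA and misc_RNA genes 32.3% ± 7.58 and 18.0% ± 9.33 of all counts. The part of these measures in the difference was not tested, and X- and Y-linked genes were not analysed here.

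**Figure D5:**
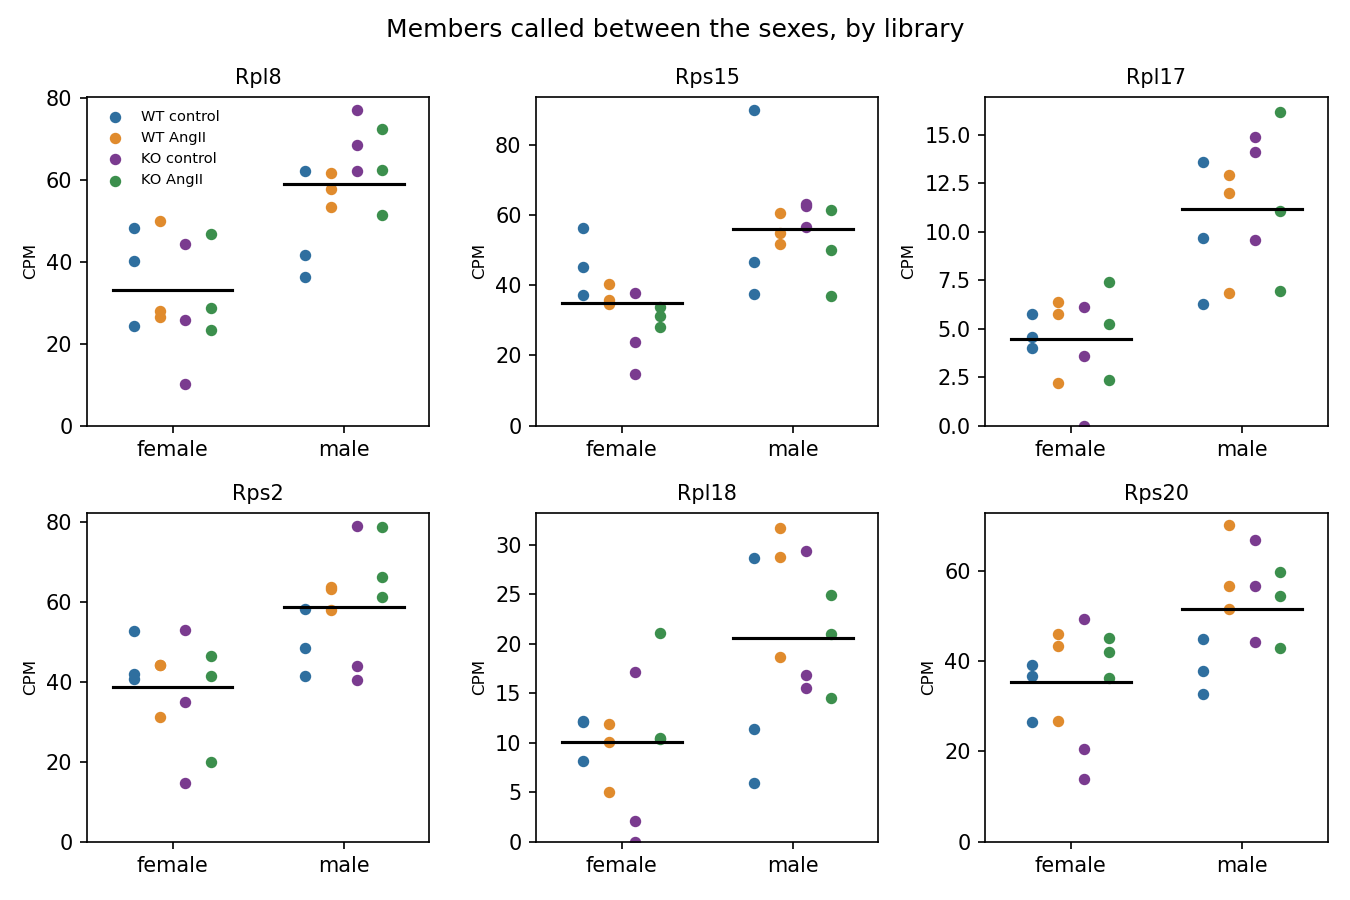
CPM of 6 members called between the sexes in each of 24 libraries, coloured by genotype and treatment, with the mean of the 12 females and 12 males (lines). The male mean is higher for each gene, the ranges overlap, and the lowest library of each gene is a KO control female.

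Other genes of the pathway were counted from lists that had been chosen with earlier results of these data known. Ribosome biogenesis genes, which make and process ribosomal RNA, had 51 tested members, and edgeR called none in the 5 comparisons, with 1, 5, 1, 3 and 2 at an unadjusted p under 0.05 in the order above (1.96%, 9.8%, 1.96%, 5.88% and 3.92%). All genes stood there at 6.71%, 7.71%, 9.73%, 7.75% and 4.03%. Nolc1, a nucleolar chaperone, stood at -0.60 with AngII in KO mice and -0.63 in KO against WT under AngII, and Bop1, which serves large subunit assembly, at -1.20 in KO against WT controls. The 24 tested genes of translation factors and other proteins with oligopyrimidine messenger RNAs had no called gene (0, 3, 1, 0 and 0 unadjusted). The 17 tested genes of mTORC1 and the control of such messenger RNAs had none either (1, 0, 0, 1 and 0), with Larp1, which binds the tract, at 0.39 with AngII in WT and 0.31 in KO mice. None was called among 7 snoRNA host transcripts, 7 ribosomal protein genes outside the symbol rule or 72 mitochondrial ribosomal proteins. The genes outside the rule include Rpl9.ps6, which was also counted above among the pseudogene rows. At an unadjusted p under 0.05 the mitochondrial genes numbered 0, 4, 3, 0 and 3, and the genes outside the rule 0, 0, 1, 0 and 0, which was Rpl7l1 (-0.90). No snoRNA host stood there in any comparison. Between the sexes, edgeR called 5.27% of all genes. Of the 24 genes with oligopyrimidine messenger RNAs it called 2, the translocation factor Eef2 higher in males (0.61) and Tpt1 lower (-0.81). Of the 7 genes outside the rule it called Fau, a fusion of a ubiquitin-like protein with a small subunit protein, higher (1.08). Of the 17 mTORC1 genes it called 1, Eif4ebp2, which encodes a repressor of cap-dependent translation, higher (0.48), and 1 of the 72 mitochondrial genes, Mrps15, lower (-0.78). The biogenesis genes and the snoRNA hosts had no called gene. At an unadjusted p under 0.05 stood 8 of 51 (15.7%) and 0 of 7 of them, against 20.2% of all genes.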

How the data were processed

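Aortic RNA depleted of ribosomal RNA was sequenced in 24 libraries, 8 groups of 3 by genotype, treatment and sex. The deposited values are raw counts per gene that the authors made; build mm10, featureCounts 1.4.6, TopHat2 2.0.14 with Bowtie2 2.2.5, and cutadapt 1.8.1 are named, per the submitters' processing notes. Strand setting and treatment of reads with several matches are not given in the sources used here.

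From these counts, edgeR 4.0.16 (R 4.3.3) fitted the 8 groups by quasi-likelihood after filterByExpr (minimum count 10, total 15) and TMM scaling, two-sided, with Benjamini-Hochberg adjustment over 16316 genes and calls at an adjusted p under 0.05. Contrasts averaged the sexes. Totals of 1523328 to 6352365 counts limit the precision of low members. Members and gene lists were chosen with earlier results of these data known. In comparisons without calls, the 5 members of smallest p were named, and the 3 highest and 3 lowest whose mean reached 1 log2 CPM. The 3 members of highest and lowest level per kb, members of paralogue pairs and up to 4 genes per other list were named too. Some members that this rule names are not reported here. Rps12, Rpl28, Rps6 and Rplp0 were chosen for display after their counts were seen, as were the start windows. Alternatives were DESeq2 1.42.0, limma-voom (limma 3.58.1, quality weights), other scalings and filters, single sexes, covariates and left-out libraries.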

Additional observations from a re-analysis of the deposited data

Results flagged for a closer look

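In 13 of 136 sets of 6 libraries (a gene or ratio in 1 genotype and treatment), 1 library lay far from the others. The chance rate of about 1 in 20 applies to independent sets of normally distributed values. These sets shared libraries, and some held values at or near 0 CPM. Some genes, such as Rpl27 and Rps13, had been named for high or low changes, which 1 outlying library can produce. The 13 sets can therefore not be compared with that rate. In WT controls, male replicate 1 had the lowest ratio of large to small subunit (1.265) and the highest Rps15 (89.9 CPM) and Rpl41 (109 CPM), and male replicate 2 had the lowest Rpl27 (0.471 CPM). In WT AngII mice, female replicate 1 was low for Rpl27a (10.5 CPM) and Rps13 (0 CPM), male replicate 3 stood apart for Rpl23a (30.5 CPM) and male replicate 2 for Rpl26 (15.9 CPM). In KO controls, female replicate 3 was high for Rpl34 (21.1 CPM) and Rps27 (5.54 CPM), female replicate 1 stood apart for Rpl36al (5.09 CPM) and female replicate 2 for Rpl26 (47.5 CPM). In KO AngII mice, female replicate 3 was high for Rpl21 (492 CPM).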

How the results depend on the processing

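No member was called in 40 alternatives for each of AngII in WT, AngII in KO and KO against WT under AngII, in 39 for the interaction, or in 36 for each sex difference. For KO against WT in controls, fits that each lacked 1 library gave 0 to 1 calls. Its median change was 0.11 in males only. Between the sexes, 8 calls became 1 without the KO control female group, where the average had no KO control part. They became 4 to 11 when 1 library was left out and 0 when the receptor share was a covariate. Among the 11 members with little repeated sequence, 3 were called between the sexes, against 5.27% of all genes in the same fit. The sex difference of KO in controls had a median of 0.012 with the receptor covariate, 0.079 among members with little repeated sequence and 0.21 to 0.58 without 1 library. That of AngII in KO was -0.39 to 0.058 without 1 library. Without Rpl21 and Rps3 the ratio of large to small was 1.33 in WT control, 1.35 in KO AngII, 1.47 in female and 1.29 in male mice. The cause of these shifts was not tested.

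Whether replicate numbers pair the libraries was not settled. Same-numbered libraries of different groups had a median correlation of 0.003, beside -0.0023 for different numbers, and 2 of 84 same-numbered pairs were over 0.1. For 12 of 24 libraries the best match had the same number, a count whose chance level is not given here. With the replicate block, 0 members were called in each of the 5 comparisons and 8 between the sexes, where the share of all genes is not given here.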
